A study of Sus scrofa with 8 samples.

Results

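The hepatic expression of 31 genes that break down fatty acids or make ketone bodies was followed in pigs before and after a diet that produced fatty liver. The genes were picked by their symbols from a table of 18103 genes, of which 13175 passed a filter on low values (0.3 FPKM or more in 4 or more of the 8 libraries). FPKM, the fragments of a gene scaled to its transcript length and to all mapped fragments of the library, takes length into account, so levels of different genes can be set side by side. By role, 19 genes were mitochondrial, 10 peroxisomal and 2 ketogenic. All 31 symbols occurred once each in the table, and all 31 passed the filter.

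Mitochondria shorten fatty acids in a repeating cycle. Long chains enter as carnitine esters made by the carnitine palmitoyltransferases, and each turn then passes through an acyl-CoA dehydrogenase, a hydratase, a hydroxyacyl-CoA dehydrogenase and a thiolase, while the electrons leave through the electron transfer flavoprotein. Peroxisomes run a separate version of the cycle for very long, branched and dicarboxylic chains, and pass the shortened products on. In the fasted liver the acetyl-CoA that results is turned into ketone bodies, and much of this pathway is under the transcription factor PPARA.

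The animals were male Landrace x Large White pigs, sampled after an overnight fast at each stage. Livers labelled Control and healthy came from pigs 4 months old on a control diet (the initial state, n = 4 libraries), and livers labelled Steatosis came from the same group of animals at 6 months of age after 2 months on a steatotic diet rich in saturated fat, fructose, cholesterol and cholate and poor in methionine and choline (n = 4 libraries). Each library was a pool of equal amounts of RNA from 2 pigs, so the spread between libraries is that between pools and not between animals. The initial livers were biopsied by laparotomy and the steatotic livers were taken after euthanasia, so that diet, 2 months of age and the way of sampling cannot be told apart.

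The deposited FPKM summed to between 511863 and 545731 per library, and read numbers were not analysed here, so precision is given by the spread between pools. Over all genes tested the values in steatosis were shifted upward, with a median log2 fold change of 0.25 (0.15 over the 2445 genes with a mean of at least 20 FPKM). Median ratio scaling, which divides a library by the median, over genes, of its ratio to the average library, used factors of 0.788 to 0.971 in the initial pools and 1.06 to 1.09 in steatosis and brought that median to -0.01. Both scalings are therefore given below, the deposited one first. Hepatocyte markers dominated every library, with summed levels of 89604 to 126436 FPKM in the initial state and 75624 to 90603 in steatosis, and 2 called higher and 3 lower of 11 table entries (none higher and 5 lower after scaling), at a median log2 fold change of -0.31 (-0.58 after scaling). Macrophage markers summed to 356 to 406 FPKM against 1017 to 1683, of which GPNMB went from a mean of 24.1 to 776 FPKM. Under both scalings 8 of 10 were called higher, beside 26.7% of all genes (11.6% after scaling). CD14 was called lower after scaling. The adipose list summed to 16.7 to 87.5 against 54.4 to 64.8 FPKM, with 1 of its 4 tested genes called higher, the fatty acid binding protein FABP4. Most of the adipose sum in steatosis was this gene, at 41.9 to 53.6 FPKM. CIDEC had a mean of 8.49 FPKM there (10.8 in the initial state) and ADIPOQ was at 0.04 FPKM or less. Of the 4 tested adipose genes 2 had a log2 fold change above 0 and 2 below. Initial pool 1 stood apart, with 3157 FPKM of skeletal muscle transcripts, 1516 FPKM of stomach transcripts and the highest adipose sum, whereas the other 7 libraries held 2.12 to 48.9 FPKM of the muscle list and 5.52 to 28.4 FPKM of the stomach list. In steatosis most of the muscle sum was 1 gene, CA3, at 15.95 to 47.18 FPKM, against 0.51 to 0.72 FPKM in initial pools 2 to 4. Of these lists 4 muscle genes and 1 stomach gene were tested, and the muscle actin ACTA1, at 1439 FPKM in initial pool 1, was the one called, as lower. Lower shares of a cell type and less RNA per cell cannot be told apart in such tissue pools.

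Of the 31 genes, 2 were called higher in steatosis and 4 lower at an adjusted p under 0.05, and 25 were not called. ACADL and ACADSB, both acyl-CoA dehydrogenases, rose on the deposited values, calls that median ratio scaling ended. CPT1A, the entry step of long chains, the dehydrogenases ACADVL and ACADM, and the dienoyl-CoA isomerase ECH1 fell under both scalings. Among all genes tested 26.7% were called higher and 2.28% lower, against 6.45% and 12.9% of these 31. For genes as abundant as most of these, with a mean of at least 20 FPKM as had 30 of the 31, the shares were 27.1% higher and 6.26% lower. After median ratio scaling none of the 31 was called higher and 13 were called lower (41.9%), beside 11.6% higher and 9.74% lower of all genes, and 9.45% higher and 20.1% lower of the abundant ones. The 4 genes called lower on the deposited values were among these 13, and kept the call in all 8 fits without a library after scaling. The other 9 were not called before scaling, and of these HADHB kept the call in 7 such fits, ACADS, ECI1 and CRAT in 6, and ETFDH, EHHADH, ACAA1, ABCD3 and ECI2 in 1 to 3. Without initial pool 1 the deposited values gave 3 mitochondrial genes higher and 2 lower, and 2 peroxisomal genes lower.

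The median log2 fold change of the 31 was -0.08 on the deposited values and -0.36 after scaling, and 26 of the 31 lay below the median of all genes. The medians of the hepatocyte markers, -0.31 and -0.58, were also below 0, and their part in these values was not tested. By role, the median log2 fold change on the deposited values was -0.04 for the mitochondrial genes, -0.15 for the peroxisomal genes and 0.09 for the ketogenic pair. After scaling these medians were -0.31, -0.42 and -0.18. The limits the study used were an adjusted p under 0.01 together with a log2 fold change beyond 1. In the fit used here no gene of the 31 passed them, beside 6.01% of all genes upward and 0.334% downward. With median ratio scaling 1 did, ACADM, beside 3.12% of all genes upward and 0.630% downward. The paper, by a comparison of its own that was not used here, lists CPT1B among its differentially expressed genes. In the plot of fold changes the genes of the 3 roles lie on both sides of 0 but mostly to the left of the median of all genes.

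**Figure D1:**
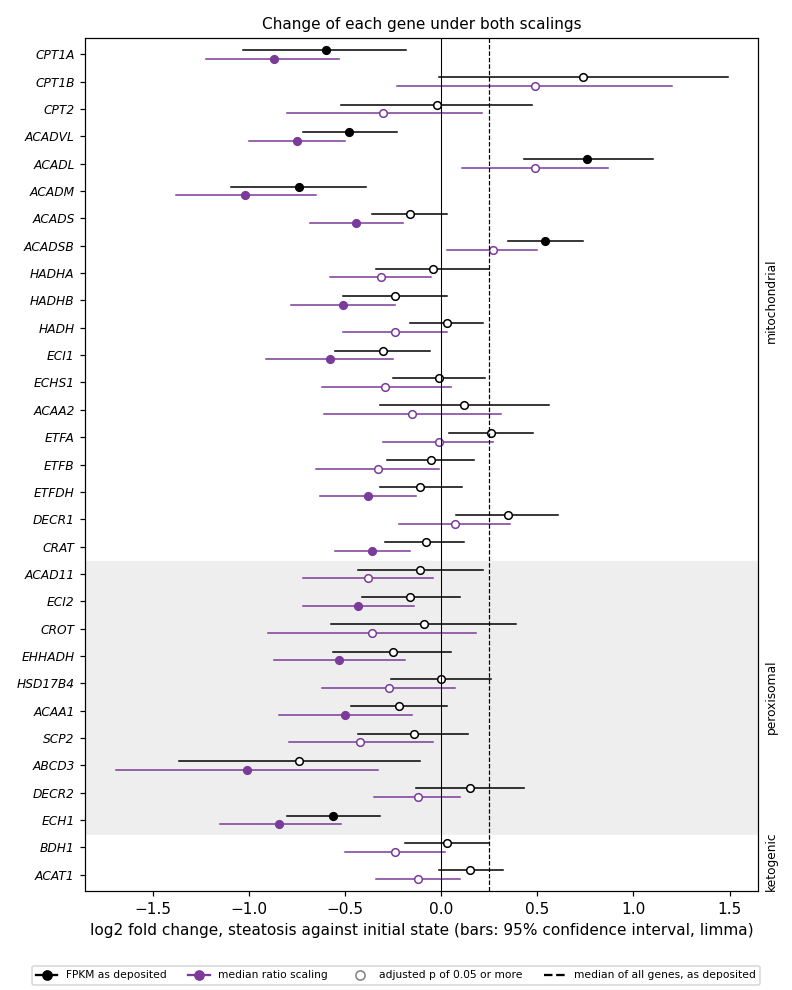
Log2 fold change of steatosis against the initial state for each of the 31 genes (x axis), with 95% confidence intervals from limma (n = 4 pools a group), black for FPKM as deposited and purple after median ratio scaling. Filled points had an adjusted p under 0.05, the dashed line is the median of all genes as deposited (0.25), and 26 of the 31 black points lie below it.

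Summed levels give the scale of the 3 branches. The 19 mitochondrial genes together reached 2272 to 2527 FPKM in the initial pools and, in steatosis, 2113 to 2444 FPKM, so the groups overlapped. The 10 peroxisomal genes summed to 1223 ± 155 FPKM (SD, n = 4) in the initial state and 1038 ± 63.3 FPKM in steatosis, with ranges of 1085 to 1420 and 980.2 to 1118 that also overlapped. The ketogenic pair summed to 187 to 201 FPKM and 204 to 215 FPKM, higher in steatosis without overlap. Median ratio scaling reversed this, to 196 to 251 against 185 to 195 FPKM. It also separated the other sums downward, the mitochondrial one at 2469 to 3104 against 1913 to 2245 FPKM and the peroxisomal one at 1154 to 1776 against 888 to 1015 FPKM. ECHS1 and ACAA2 weighed most in the mitochondrial sum, with means over all pools of 629.7 and 311 FPKM. SCP2, at 257 FPKM, weighed most in the peroxisomal sum. The spread of single genes among pools is shown in the plot of all genes by pool.

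**Figure D2:**
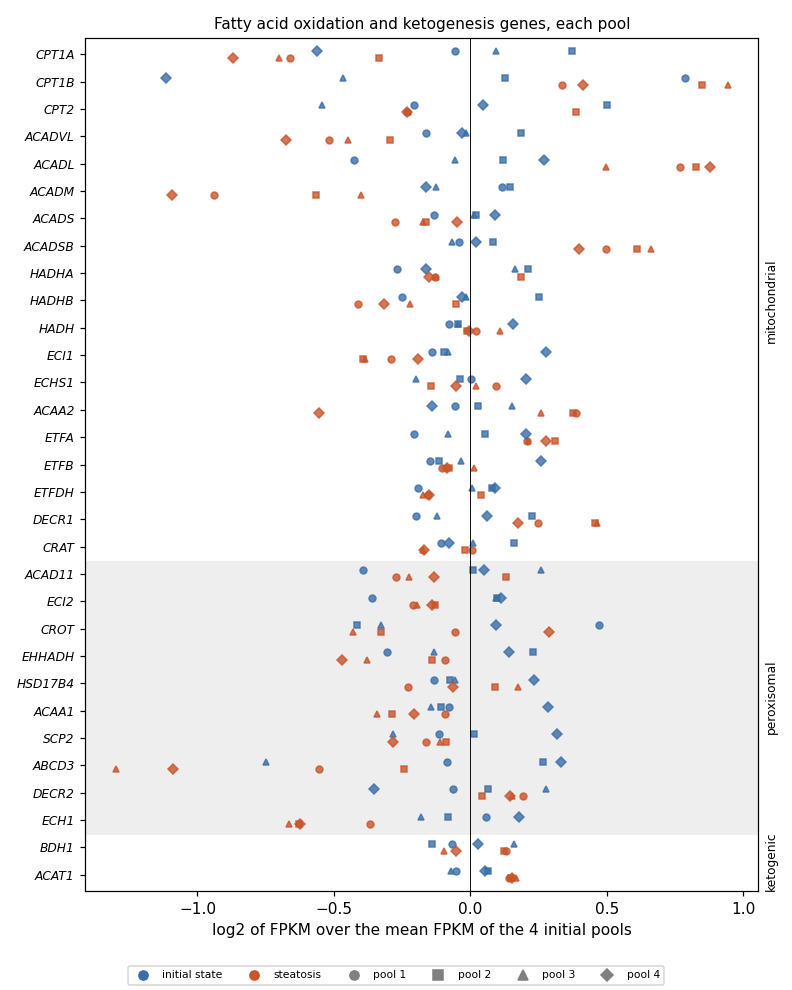
FPKM of each of the 31 genes in each of the 8 pools, as log2 of its ratio to the mean of the 4 initial pools (x axis), blue for the initial state, orange for steatosis, with 1 symbol per pool number. On these deposited values the orange points of ACADL, ACADSB, ETFA and ACAT1 lie to the right of all blue points, and those of ACADVL, ACADM, ECI1 and ECH1 to the left of them.

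Of the 2 forms of carnitine palmitoyltransferase 1, CPT1A (gene ID 399527, Sscrofa11.1 chromosome 2, 4250642 to 4293914) was by far the more abundant. CPT1A, the liver form of the enzyme and the main control point of the pathway, stood at 58.7, 79.0, 65.1 and 41.3 FPKM in initial pools 1 to 4 and at 38.6, 48.4, 37.5 and 33.4 FPKM in steatosis pools 1 to 4. Each steatosis pool was below the initial pool of the same number, but the groups overlapped because initial pool 4 was lower than steatosis pool 2. The means were 61.0 ± 15.6 and 39.5 ± 6.35 FPKM (SD, n = 4), and the log2 fold change was -0.60 (standard error 0.19, adjusted p = 0.0389). The call was lost in 6 of the 8 fits that left out a library, with an adjusted p of up to 0.105 without steatosis pool 4. It strengthened when pool number entered the fit as a block (adjusted p = 0.00719) and held in all 8 such fits after median ratio scaling, where the log2 fold change was -0.87 (adjusted p = 0.00493).

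CPT1B, the muscle form of the enzyme, was the least abundant gene of the 31. Its levels were 2.24, 1.42, 0.94 and 0.60 FPKM across the initial pools and, in steatosis, 1.64, 2.34, 2.50 and 1.73 FPKM, a log2 fold change of 0.74 (standard error 0.33) that was not called (adjusted p = 0.122). The highest initial value came from initial pool 1, the library with skeletal muscle transcripts, and without that library the log2 fold change was 1.04 (adjusted p = 0.0232). The part of the muscle transcripts in that value was not tested. After scaling the log2 fold change over all pools was 0.49 (adjusted p = 0.307).

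Once inside, the acyl group is handed back to coenzyme A by CPT2. CPT2 was at 33.6 ± 10.4 FPKM in the initial state and 32.4 ± 7.66 FPKM in steatosis, with a log2 fold change of -0.02 and a 95% confidence interval of -0.52 to 0.47. Pool 2 was its highest in both groups, at 47.5 and 43.9 FPKM against 23.0 to 34.6 FPKM in all other libraries. CRAT, the carnitine acetyltransferase that handles the shortest chains, was at 91.8 ± 7.76 and 86.5 ± 5.75 FPKM and was not called on the deposited values (adjusted p = 0.512), but was called lower after scaling, at a log2 fold change of -0.36 (adjusted p = 0.0183).

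**Figure D3:**
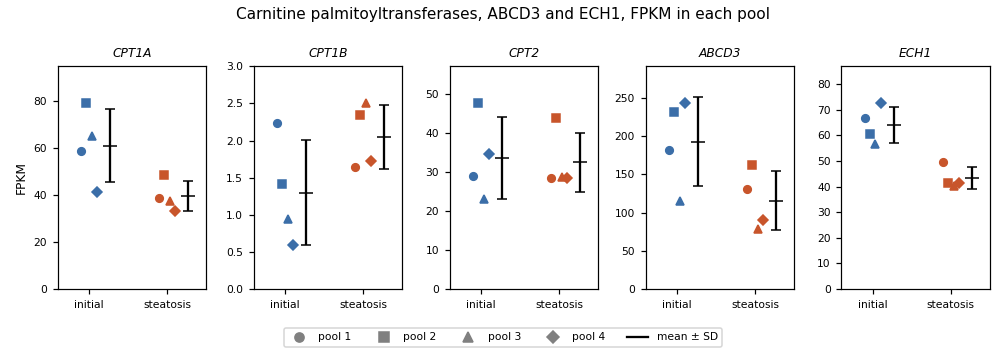
FPKM (y axes, from 0) of the 3 carnitine palmitoyltransferases and of the peroxisomal genes ABCD3 and ECH1 in each pool, with bars for mean ± SD of 4 pools. Pool 2 is the highest of both groups for CPT1A and CPT2, pool 3 the lowest of both groups for ABCD3, and the groups do not overlap for ECH1 only.

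The 5 acyl-CoA dehydrogenases, which catalyse the first oxidation of each turn for chains of different length, did not move together, with 2 called lower under both scalings and 2 called higher on the deposited values only. ACADVL, for very long chains (gene ID 100520636, chromosome 12, 52573521 to 52581755), was at 80.4, 102.5, 89.0 and 88.3 FPKM in the initial pools and at 63.0, 73.5, 66.1 and 56.4 FPKM in steatosis. The lowest initial pool was above the highest steatosis pool. From 90.0 ± 9.17 to 64.7 ± 7.08 FPKM the log2 fold change was -0.48 (standard error 0.11, adjusted p = 0.0103), and -0.75 after scaling (adjusted p = 0.00215). In the annotation ACADVL overlaps DLG4, DVL2 and a microRNA gene, and how reads in such stretches were assigned was not stated in the sources used here.

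ACADM, for medium chains (gene ID 397104, chromosome 6, 137541481 to 137575544), showed one of the 2 lowest fold changes of the 31 as deposited, the other being that of ABCD3. Its initial levels were 229.8, 234, 194 and 189.5 FPKM, against 111, 143, 160.5 and 99.4 FPKM in steatosis, again without overlap. The mean went from 212 ± 23.4 to 128 ± 28.3 FPKM, a ratio of 0.606 and a log2 fold change of -0.74 (standard error 0.16, adjusted p = 0.00714). After scaling it was -1.02 (adjusted p = 0.00311), and the call held in all 8 fits that left out a library under both scalings, as it did for ACADVL and ECH1.

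The third dehydrogenase of straight chains, ACADS, acts on the shortest ones. It was at 90.2 ± 5.79 FPKM in the initial state and 80.5 ± 5.15 FPKM in steatosis, lower in 4 of 4 same-numbered pools, but with a log2 fold change of -0.16 it was not called (adjusted p = 0.179). After scaling the log2 fold change was -0.44 and the gene was called (adjusted p = 0.02).

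ACADL, for long chains (gene ID 396931, chromosome 15, 112935631 to 112969381), showed the highest fold change of the 31 as deposited. Levels of 25.4, 37.0, 32.8 and 41.0 FPKM in the initial pools rose to 58.0, 60.3, 48.0 and 62.6 FPKM in steatosis, with every steatosis pool above every initial pool. Expressed as means this was 34.0 ± 6.70 against 57.2 ± 6.42 FPKM, a log2 fold change of 0.76 (standard error 0.15, adjusted p = 0.00534). After median ratio scaling the log2 fold change was 0.49 and the call was lost (adjusted p = 0.0684), though with the pool block as well the adjusted p was 0.0453.

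ACADSB, which acts on short branched chains and takes part in isoleucine breakdown (gene ID 100154810, chromosome 14, 132563002 to 132607574), behaved likewise. Its initial pools lay at 86.6, 94.4, 85.0 and 90.5 FPKM and its steatosis pools at 126, 136, 141 and 117.5 FPKM, with a wide gap between the groups. The log2 fold change of 0.54 had a standard error of 0.09 and an adjusted p of 0.0019. With scaling it was 0.27 and was not called (adjusted p = 0.0982). IKZF5 overlaps this gene in the annotation.

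**Figure D4:**
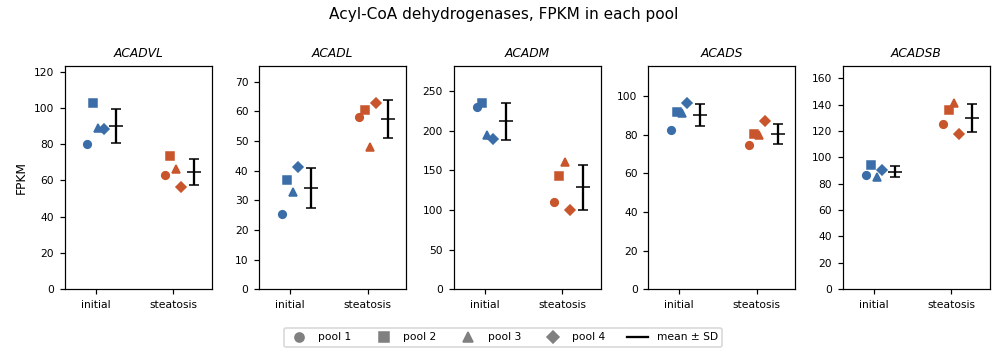
FPKM (y axes, from 0) of the 5 acyl-CoA dehydrogenases in each pool, with bars for mean ± SD of 4 pools. On these deposited values ACADVL and ACADM are lower and ACADL and ACADSB higher in steatosis without overlap of the groups, and ACADS overlaps.

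None of the genes for the steps after the dehydrogenases was called on the deposited values. HADHA and HADHB encode the 2 subunits of the trifunctional protein, which carries out the remaining reactions on long chains, and lie 221 bases apart on chromosome 3. HADHA was at 163 ± 26.5 and 157 ± 18.5 FPKM, a log2 fold change of -0.04 (adjusted p = 0.832). HADHB was at 107 ± 15.4 and 90.6 ± 9.78 FPKM, with a log2 fold change of -0.24 (adjusted p = 0.165). HADHB was lower in steatosis in 4 of 4 same-numbered pools and HADHA in 2 of 4. After scaling HADHB was called lower (-0.51, adjusted p = 0.0165) and HADHA was not (-0.31, adjusted p = 0.0898).

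The most abundant of the 31 was ECHS1, the hydratase for short chains. It was read at 635, 617, 552 and 729.8 FPKM in the initial pools and at 676, 573, 643 and 611 FPKM in steatosis, with means of 634 ± 73.3 and 626 ± 44.1 FPKM. Its log2 fold change of -0.01 had a 95% confidence interval of -0.25 to 0.23, and of -0.62 to 0.05 after scaling. HADH, the hydroxyacyl-CoA dehydrogenase of short and medium chains, was equally close at 108 ± 8.38 and 109.9 ± 4.25 FPKM. Neither gene was called under either scaling.

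ACAA2, the thiolase that closes the cycle for medium chains, had an uneven spread. The initial pools held 282, 299, 326 and 266 FPKM, while in steatosis pools 1 to 3 held 383, 381 and 351 FPKM and pool 4 held 199 FPKM, the lowest of all 8. The log2 fold change was 0.12 (adjusted p = 0.67) and turned to -0.15 after scaling. Pool 4 was also the lowest of its group at both stages for CPT1A and ACADM.

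Double bonds of unsaturated chains are removed by auxiliary enzymes. ECI1, the mitochondrial enoyl-CoA isomerase, was at 78.3, 80.8, 81.7 and 105 FPKM in the initial state and at 70.5, 65.8, 66.0 and 75.6 FPKM in steatosis. The groups did not overlap, yet the log2 fold change of -0.30 was not called (adjusted p = 0.0606). In the blocked fit it was called lower (adjusted p = 0.0453), as it was after scaling (-0.58, adjusted p = 0.0224). DECR1, the mitochondrial dienoyl-CoA reductase, went the other way, from 83.5 ± 11.2 to 106 ± 10.6 FPKM. It was higher in 4 of 4 same-numbered pools and narrowly missed the call (log2 fold change 0.35, adjusted p = 0.0505, with the block 0.0471). After scaling its log2 fold change was 0.07 (adjusted p = 0.727).

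Electrons from the dehydrogenases pass through the 2 subunits of the electron transfer flavoprotein, ETFA and ETFB, to its ubiquinone oxidoreductase ETFDH. ETFA was at 55.6, 66.6, 60.6 and 73.9 FPKM in the initial pools and at 74.0, 79.5, 74.3 and 77.8 FPKM in steatosis. The groups were separated by a narrow margin, and the log2 fold change of 0.26 was not called (adjusted p = 0.0768). It matched the median of all genes and was -0.01 after scaling. ETFB was at 93.9 ± 12.6 and 89.9 ± 3.25 FPKM (log2 fold change -0.05) and ETFDH at 65.0 ± 5.72 and 60.3 ± 4.34 FPKM (-0.11), neither of which was called. Only ETFDH of the 3 was called lower after scaling, at -0.38 (adjusted p = 0.0374), and with the block added it was not (adjusted p = 0.0575).

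Among the peroxisomal genes, 1 of 10 was called lower and none higher on the deposited values, beside 2.28% and 26.7% of all genes. ECH1 (gene ID 733679, chromosome 6, 47627056 to 47638961) encodes a dienoyl-CoA isomerase found in both peroxisomes and mitochondria. It was at 66.7, 60.5, 56.5 and 72.3 FPKM in the initial pools and at 49.6, 41.4, 40.3 and 41.5 FPKM in steatosis. All 4 steatosis pools were below all initial pools. The log2 fold change was -0.56 (standard error 0.11, adjusted p = 0.0043), and -0.84 after scaling (adjusted p = 0.00388).

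ABCD3, a transporter of the peroxisomal membrane for branched and dicarboxylic acyl-CoA and bile acid precursors, had as low a fold change as ACADM but a far wider spread. Its initial levels were 182, 232, 115 and 243 FPKM and its steatosis levels 131, 163, 78.4 and 90.8 FPKM. Pool 3 was lowest at both stages, and each steatosis pool was below the initial pool of its number, so the groups overlapped while the pairs did not cross. From 193 ± 58.4 to 116 ± 38.7 FPKM the log2 fold change was -0.74 (standard error 0.28), with an adjusted p of 0.0727 without the block and 0.0162 with it. After scaling it was -1.01 (adjusted p = 0.0411), and 2 of 8 fits that left out a library called it under either scaling.

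The peroxisomal cycle proper showed smaller differences. EHHADH, the L-bifunctional enzyme, was at 143 ± 24.0 and 119 ± 15.0 FPKM (log2 fold change -0.25, adjusted p = 0.191). HSD17B4, the D-bifunctional enzyme that serves branched chains and bile acid precursors, was at 144 ± 17.2 and 145 ± 17.5 FPKM, with a 95% confidence interval of the log2 fold change from -0.26 to 0.26. The thiolases were ACAA1, at 145 ± 21.3 and 123 ± 9.35 FPKM, and SCP2, at 271 ± 49.0 and 242 ± 14.3 FPKM. ACAA1 was lower in 4 of 4 same-numbered pools, SCP2 in 3 of 4, and neither was called on the deposited values (adjusted p = 0.164 and 0.41). The annotation places ACAA1 across MYD88 and DLEC1.

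After median ratio scaling 5 of the 10 peroxisomal genes were called lower, namely ECH1, ABCD3, EHHADH (-0.53, adjusted p = 0.0366), ACAA1 (-0.50, adjusted p = 0.0473) and ECI2 (-0.43, adjusted p = 0.0424). Of all genes 9.74% were called lower with this scaling, and 20.1% of those with a mean of at least 20 FPKM. The count of 5 depended on single libraries and fell to 1, ECH1, without steatosis pool 3 or without steatosis pool 4. With the block and scaling together it was 4, EHHADH having an adjusted p of 0.0611, where 8.30% of all genes were called lower and 11.5% higher.

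The remaining peroxisomal genes stayed within their spread on the deposited values. ECI2, an enoyl-CoA isomerase, was at 105 ± 15.5 and 93.4 ± 2.54 FPKM, and without initial pool 1, its lowest initial value, the log2 fold change moved from -0.16 to -0.27 and was called (adjusted p = 0.0351). ACAD11, a dehydrogenase of hydroxylated acids, was at 73.3 ± 13.2 and 67.6 ± 8.76 FPKM. DECR2, the peroxisomal dienoyl-CoA reductase, was at 56.1 ± 10.0 and 61.6 ± 2.63 FPKM. CROT, which exports medium chains as carnitine esters, was the least abundant peroxisomal gene at 28.2 ± 8.28 and 26.3 ± 6.04 FPKM. Neither ACAD11, DECR2 nor CROT was called under either scaling.

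The 2 ketogenic genes were not called. ACAT1, the mitochondrial thiolase that joins 2 acetyl-CoA, was at 109.9, 119, 109 and 118 FPKM in the initial pools and at 126, 126, 128 and 127 FPKM in steatosis. The groups did not overlap and the standard deviation of the steatosis pools was 0.936 FPKM. Yet the log2 fold change was only 0.15 (95% confidence interval -0.01 to 0.32, adjusted p = 0.147), and -0.12 after scaling. BDH1, which interconverts acetoacetate and 3-hydroxybutyrate, was at 80.9 ± 7.35 and 82.6 ± 6.69 FPKM, with a log2 fold change of 0.03 (adjusted p = 0.832) and -0.24 after scaling.

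Overlap of the groups was counted as well. On the deposited values 4 of the 31 genes (ACADL, ACADSB, ETFA and ACAT1) were higher in every steatosis pool than in any initial pool, and 4 (ACADVL, ACADM, ECI1 and ECH1) lower. Over all genes tested 29.6% were separated upward and 2.53% downward. After scaling none of the 31 was separated upward and 13 were separated downward, while 13.5% and 13.2% of all genes were. These shares were not computed for genes with a mean of at least 20 FPKM, as had 30 of the 31. Of such genes 20.1% were called lower after scaling, beside 9.74% of all genes.

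Ratios of 2 genes within one library do not depend on how libraries are scaled, and 8 such ratios were compared. ACADL to ACADVL was 0.315, 0.361, 0.368 and 0.465 in the initial pools and 0.922, 0.821, 0.727 and 1.11 in steatosis, so that the 2 transcripts were nearly equal in steatosis while ACADVL was the more abundant in every initial pool. CPT1B to CPT1A rose from 0.0213 ± 0.0114 to 0.0523 ± 0.0103, with the highest initial value, 0.0382, in the pool with muscle transcripts. ETFB to ETFA fell from 1.47 ± 0.108 to 1.18 ± 0.069 and ETFDH to ETFA from 1.02 ± 0.0585 to 0.788 ± 0.0372. None of these 4 ratios overlapped between the groups, as the plot of ratios shows. Each reached 0.0286, the smallest p that the two-sided exact permutation test of 4 against 4 allows. Adjusted over the 8 ratios the p of this permutation test was 0.0571 and thus did not pass 0.05. The pairs were chosen with earlier results of these data known, so these p-values are no independent test.

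**Figure D5:**
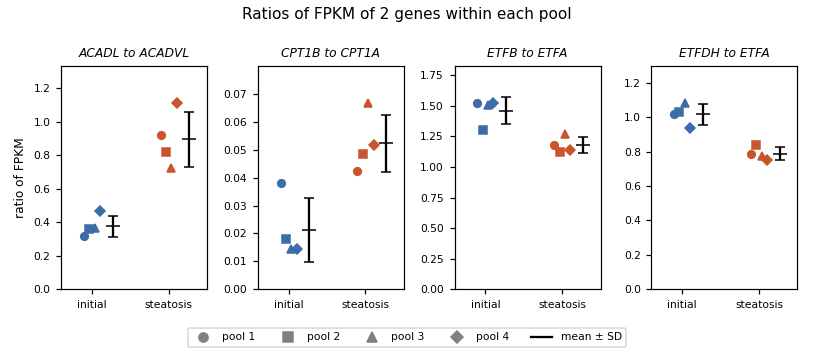
Ratio of the FPKM of 2 genes within each pool (y axes, from 0) for the 4 of 8 ratios whose groups did not overlap, with bars for mean ± SD of 4 pools. ACADL to ACADVL and CPT1B to CPT1A are higher in steatosis, and ETFB to ETFA and ETFDH to ETFA lower.

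The other 4 ratios overlapped. CPT2 to CPT1A was 0.573 ± 0.205 and 0.817 ± 0.0783, and HADHB to HADHA was 0.663 ± 0.0586 and 0.577 ± 0.033 (both adjusted p = 0.114, exact permutation test). EHHADH to HSD17B4 was 0.993 ± 0.156 and 0.838 ± 0.179 (adjusted p = 0.229, exact permutation test), and BDH1 to ACAT1 was 0.713 ± 0.0894 and 0.653 ± 0.0569 (adjusted p = 0.286, exact permutation test). A sign-flip test over the 4 pairs of same-numbered pools cannot give a p below 0.125.

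The order of the pools was compared between the stages. Of the 31 genes, 8 had the same pool number highest at both stages (25.8%, against 30.4% of all genes tested) and 13 the same one lowest (41.9%, against 27.4%). Pool 2 was the highest at both stages for CPT1A, CPT2, ACADVL, HADHA and HADHB. Pool 4 was the highest at both stages for ACADL, ACADS and ECI1. Pool 1 was the lowest at both stages for 7 genes (ACADS, HADHB, ETFA, ETFB, ACAD11, ECI2 and HSD17B4), pool 3 for ACAA1, ABCD3 and ECH1. With pools as a block the mitochondrial counts were 3 higher and 4 lower, and 2 peroxisomal genes were called lower, DECR1, ECI1 and ABCD3 being the additions, where 25.7% of all genes were called higher and 2.60% lower.

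A further 79 genes of the pathway were listed, of which 75 were in the table and 73 were tested. Of these 8 were called higher and 10 lower (1 and 18 after scaling), where 26.7% of all genes were called higher and 2.28% lower (11.6% and 9.74% after scaling). Their median log2 fold change was 0.09, and none passed the study's limits in the fit used here. The most abundant was catalase (CAT), which removes the peroxide that peroxisomal oxidation makes, at 1409 ± 70.1 and 1678 ± 104 FPKM (log2 fold change 0.25, adjusted p = 0.068, and -0.02 after scaling). ACSL1, which activates long chains, was at 918 ± 285 and 656 ± 171 FPKM (log2 fold change -0.48, adjusted p = 0.14, with the block 0.0225, and -0.75 with an adjusted p of 0.0401 after scaling). PHYH, the first enzyme of phytanic acid oxidation, was at 381 ± 30.9 and 299 ± 57.0 FPKM (log2 fold change -0.37, adjusted p = 0.0702, and -0.64 with an adjusted p of 0.0235 after scaling). SLC27A2, an activator of very long chains, was at 152 ± 9.96 and 163 ± 23.5 FPKM (0.10, adjusted p = 0.525, and -0.17 after scaling). HSD17B10, a mitochondrial dehydrogenase of branched chains, fell from 302 ± 29.4 to 235 ± 7.01 FPKM (log2 fold change -0.36, adjusted p = 0.0182, and -0.63 after scaling). CREB3L3, a liver transcription factor that acts with PPARA, rose from 199 ± 35.8 to 281 ± 35.3 FPKM (0.51, adjusted p = 0.0292, and 0.24 with an adjusted p of 0.307 after scaling).

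By branch, the other mitochondrial genes had 2 called higher (SLC22A5 and MCEE) and 3 lower (HSD17B10, HSDL2 and ETFRF1) of 18 tested. The other peroxisomal genes had 1 higher and 3 lower of 31, with the peroxisome assembly genes PEX3 and PEX16 among the latter. The regulators had 3 higher (PPARD, RXRA and CREB3L3) and 1 lower (PPARGC1A) of 12. A list of 7 genes, further PPARA targets together with CPT1C, had 2 higher (PDK4 and UCP2) and 1 lower (PLIN2). None of the 7 genes named here as higher was still called after scaling, while the lower ones were. Beside these counts stand the 26.7% higher and 2.28% lower of all genes. All but HSD17B10, CREB3L3 and CPT1C of those listed here are named because they were called, that is, after their values were seen. PPARA itself was at 7.13 ± 2.08 and 6.65 ± 2.87 FPKM (adjusted p = 0.729), and its coactivator PPARGC1A at 3.71 ± 2.2 and 1.66 ± 0.296 FPKM (-0.98, adjusted p = 0.0422, called in 2 of the 8 fits without a library).

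Other genes of ketone metabolism had none called higher and 2 lower of 5 tested, AACS, a cytosolic synthetase that activates acetoacetate, among them. AACS was at 11.3 ± 0.815 and 6.22 ± 2.58 FPKM (log2 fold change -0.94, adjusted p = 0.026, and -1.21 after scaling), and was named after its value was seen.

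For comparison, of 17 genes of the citric acid cycle, the other consumer of mitochondrial acetyl-CoA, 2 were called higher, citrate synthase (CS) among them, and none lower (26.7% and 2.28% of all genes), with a median log2 fold change of 0.12. After scaling none was higher and 5 were lower (11.6% and 9.74% of all genes). MDH2, at 188 ± 34.6 and 171 ± 10.2 FPKM, and SDHB, at 161 ± 9.68 and 149 ± 3.76 FPKM, were the most abundant of them, not called on the deposited values and called lower after scaling. The macrophage transcripts were higher in all 4 steatosis pools by their summed level, and their part in the differences given above was not tested.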

How the data were processed

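Poly-A RNA of 8 liver pools was read as paired ends on a DNBseq platform. The authors filtered the reads, aligned them with HISAT2 2.0.4 to the Sus scrofa 11.1 genome, assembled transcripts with StringTie, added new coding ones, and quantified genes with Bowtie2 2.2.5 and RSEM 1.2.12. The deposited values are FPKM without counts, so no count model was used. RSEM spreads reads among similar transcripts, and strandedness was not given in the sources used here. The 4 files of the authors' own pairwise Poisson comparisons (fold changes, p-values) were not used.

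Here log2(FPKM + 0.1) was fitted with limma 3.58.1 (R 4.3.3, mean-variance trend, group as the sole term) over the 13175 genes that reached 0.3 FPKM in 4 or more libraries, and p-values were adjusted by Benjamini-Hochberg over all of them. Fold changes of low genes are understated on this scale. The fit was tested on simulated data. Ratios were tested with a two-sided exact permutation test (scipy 1.17.1). Coordinates are RefSeq's for Sscrofa11.1. The genes, the lists and the ratios were chosen with earlier results of these data known. All 31 genes were described. Of the other pathway genes, those past the study's limits and the 8 with the highest mean FPKM were to be named, and of each marker list at most 3. Alternatives covered scaling, filter, pseudocount, trend, the pool number as a block and leaving out each library. Median ratio scaling with a library left out was added after seeing the data. Pools with the same number deviated together from their group means (correlations 0.163, 0.35, 0.317 and 0.247), so they were treated as pairs in the block. Nothing says that same-numbered pools hold the same pigs. Some genes of the lists are counted but not reported here by name.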

Additional observations from a re-analysis of the deposited data

Results flagged for a closer look

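Of the 62 sets of 4 pools (31 genes in 2 groups), 8 held a pool whose gap to its nearest neighbour was a larger share of the range than Dixon's 95% critical value allows, where chance gives about 1 in 20. Steatosis pool 2 was far above the other steatosis pools for CPT2 (43.9 against 28.7 FPKM at most), HADHA (185 against 149 FPKM) and ETFDH (66.7 against 58.4 FPKM). Initial pool 4 was far above the other initial pools for HADH (120.2 against 104 FPKM), ECI1 (105 against 81.7 FPKM) and ACAA1 (176 against 137 FPKM). ECI2 in initial pool 1 was far below the rest at 81.8 FPKM, the nearest being 112 FPKM. ECH1 in steatosis pool 1 was the highest of its group at 49.6 FPKM, the nearest being 41.5 FPKM, and still below every initial pool.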

How the results depend on the processing

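Scaling moved the counts. Of the mitochondrial genes 2 were called higher and 3 lower as deposited. With upper quartile scaling these were 1 and 8, with median ratio scaling 0 and 8, and with the replicate block together with median ratio scaling 1 and 7. Of all genes 26.7% were called higher and 2.28% lower as deposited, and 25.7% and 2.60% with the replicate block. With median ratio scaling these shares were 11.6% and 9.74%, and with the block added 11.5% and 8.30%. They were not computed for upper quartile scaling or without a library. The peroxisomal count of 1 lower became 5 with upper quartile or median ratio scaling, 2 with the replicate block and 4 with both block and median ratio scaling, and ranged from 1 to 2 when a library was left out. It was 2 without initial pool 1, initial pool 3 or steatosis pool 2. Leaving out a library after median ratio scaling gave 0 to 2 mitochondrial genes higher, 5 to 9 lower (6 without steatosis pool 1 or 2) and 1 to 4 peroxisomal genes lower. The study's limits were passed by 0 genes as deposited and by 1, lower, with median ratio scaling, alone or with the block, and by 0 to 1 when a library was also left out. Beyond CPT1A, whose call was also lost with a common sum of FPKM (adjusted p = 0.0528), without a filter (0.0579) and without the trend (0.0551), the pseudocounts 1 and 0.01, the filters and the trend ended no call, and the stricter filter added DECR1 (adjusted p = 0.0498).

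Directions that turned belonged to genes never called under the setting concerned. With upper quartile scaling these were HADH (-0.20), ACAA2 (-0.11), HSD17B4 (-0.23), DECR2 (-0.08), BDH1 (-0.20) and ACAT1 (-0.08). With median ratio scaling, without or with the block, they were HADH (-0.24), ACAA2 (-0.15), ETFA (-0.01), HSD17B4 (-0.27), DECR2 (-0.12), BDH1 (-0.24) and ACAT1 (-0.12). Leaving out a library turned the sign of CPT2 (-0.19 to 0.16), HADHA (-0.13 to 0.03), ECHS1 (-0.08 to 0.06), ETFB (-0.10 to 0.03), CROT (-0.23 to 0.09), HSD17B4 (-0.06 to 0.08) and BDH1 (-0.01 to 0.09). Single libraries also decided calls as deposited: DECR1 was called higher without initial pool 2 (adjusted p = 0.0253), ETFA higher without initial pool 4 (0.025), and ABCD3 lower without initial pool 3 (0.0204) or steatosis pool 2 (0.0436). The replicate block changed no other call than those of ECI1, DECR1 and ABCD3 as deposited. The 8 ratios kept their direction in every fit without a library. Why the deposited values are shifted between the groups was not tested. With 4 pools a group, small changes cannot be told from none.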
